A study of Homo sapiens with 24 samples.

Results

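5 long non-coding RNAs were followed across RNA-seq libraries of T/C-28a2 cells, an immortalised human chondrocyte line. They are LINC02582, LINC03061 and 3 genes that carry only an Ensembl identifier, ENSG00000227706, ENSG00000228509 and ENSG00000231405. These are 5 of 62703 genes in the count files, picked because non-coding genes with the largest changes under sorbitol or in WNK2 null cells were sought. The values that picked them are therefore given as a description with no test.

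Long non-coding RNAs are transcribed, spliced and often polyadenylated like messenger RNAs but encode no known protein. Some act on genes beside them on the chromosome, others act elsewhere in the nucleus or cytoplasm, and many have no known role. Their levels are often low and differ strongly between cell types and states. WNK2 is a kinase of the family that senses chloride and cell volume, and sorbitol raises the osmolarity of the medium.

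The study asked how WNK2 acts in the chondrocyte response to lasting hyperosmotic stress, and 24 libraries in 6 groups of 4 are used here. WT Ctr and WT Sor are untransfected wild-type cells in isotonic medium and in medium with 100 mM sorbitol for 7 days. WNK2 trans Ctr and WNK2 trans Sor are wild-type cells given a plasmid encoding WNK2 for 48 hours before the same 7 days without or with sorbitol, and WNK2- Ctr and WNK2- Sor are cells lacking exon 2 of WNK2, likewise without or with sorbitol. The WNK2- cells were grown from single CRISPR-edited clones. The sources used here name a single sequenced clone without saying which clones the 8 libraries hold, so effects of the clone and of the deletion cannot be told apart. The controls of transfection were cells without plasmid, so effects of the plasmid and of transfection itself cannot be told apart either.

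WNK2 was counted 1217 to 2568 times in the libraries labelled WT Ctr and 163 to 290 times in those labelled WNK2 trans Ctr, which goes against those labels. WT Sor held 266 to 314 WNK2 reads, WNK2 trans Sor 2237 to 3739, WNK2- Ctr 440 to 501 and WNK2- Sor 322 to 503. WT Sor, at 15.4 to 17.4 CPM (read counts scaled to library size), overlapped the lowest of the WNK2- libraries, which spanned 16.9 to 22.8, and lay below the others, so WNK2 counts do not check the label of WT Sor either, on which each comparison of WNK2- Sor with WT Sor rests. Reads from the other exons are still counted in cells that lack exon 2. Results that use either isotonic wild-type group are therefore given by label. For the 5 RNAs the values with the other group are added, and for other genes the level in the other group is added beside some calls where it lies close. The 16 wild-type libraries held 14153002 to 23239491 counted reads and the 8 WNK2- libraries 18578564 to 25664619. Of 10 chondrocyte markers 6 passed the low-count filter, and SOX9 was listed at 0 in all 24 libraries. In CPM the summed markers spanned 9.09 to 19.9 for WT Ctr, 17.3 to 18.4 for WT Sor and 25.9 to 30.7 for WNK2 trans Ctr. They spanned 5.36 to 7.60 for WNK2 trans Sor, 5.57 to 7.996 for WNK2- Ctr and 3.79 to 4.68 for WNK2- Sor. By label, the mean of ACAN, the main cartilage proteoglycan, was 3.25 CPM for WT Ctr, 6.08 for WT Sor and 8.47 for WNK2 trans Ctr, and that of COL2A1, the main cartilage collagen, was 4.50, 3.20 and 9.76 in the same groups. Of 4 fibroblast markers 2 passed the low-count filter, COL1A1 and COL3A1, with means of 2896 and 447 CPM for WT Ctr. Summed fibroblast markers were at 2695 to 3865 CPM for WT Ctr and 3520 to 3768 for WT Sor, at 5239 to 6420 for WNK2 trans Ctr and 1059 to 1791 for WNK2 trans Sor, and at 2574 to 2936 for WNK2- Ctr and 925 to 1119 for WNK2- Sor. Of 3 leukocyte markers 1 passed the filter, the monocyte marker CD14. Its means were 17.0 and 4.38 CPM in WNK2 trans Ctr and WNK2 trans Sor, 8.62 and 10.3 in WT Ctr and WT Sor, and 2.23 and 1.86 in WNK2- Ctr and WNK2- Sor. PTPRC, which did not pass, had means of 0.0562 and 0.0561 CPM in WNK2 trans Ctr and WNK2 trans Sor and 0.0826 and 0.106 in WT Ctr and WT Sor. Unlike CD14, it was highest in WNK2- Ctr and WNK2- Sor, at 0.252 and 0.339 CPM. CD68 was listed at 0 throughout. Summed endothelial markers were at 98.7 to 106 CPM for WNK2 trans Sor and at 22.9 to 66.9 elsewhere. Of these CDH5 had means of 50.2 CPM in WNK2 trans Sor and 9.38 in WT Sor, PECAM1 of 50.4 and 52.7 and VWF of 0.621 and 0.756. The part of these shifts in the levels of the 5 RNAs was not tested.

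The genes lie on 5 chromosomes (GRCh38, GENCODE 29). LINC02582 (ENSG00000261780) is on the plus strand of chromosome 18 from 73324941 to 73349878 and has 3 annotated transcripts. LINC03061 (ENSG00000275216) is on the plus strand of chromosome 13 from 109269634 to 109278512, with 2 transcripts. ENSG00000227706 lies on the minus strand of chromosome 6 from 67887646 to 67889339 and has 1 transcript of 2 exons. ENSG00000228509 lies on the minus strand of chromosome 2 from 190676944 to 190708716, with 3 transcripts, and is annotated as antisense. ENSG00000231405 lies on the plus strand of chromosome 22 from 27143478 to 27159878 and has 1 transcript of 2 exons. No annotated gene overlaps 4 of them, while the body of ENSG00000228509 overlaps that of NAB1, which is transcribed from the plus strand, with 186 bases of exon in common.

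The libraries were made from poly(A)-enriched RNA, which favours RNAs with a polyadenylated end. The last 80 bases of the longest annotated transcript of each gene are shown for that reason, read 5′ to 3′ on the strand of the gene from the GENCODE 29 transcripts and GRCh38. Capitals mark AATAAA or ATTAAA, the 2 usual poly(A) signal hexamers, where one was found on that strand within the last 40 bases.
LINC02582: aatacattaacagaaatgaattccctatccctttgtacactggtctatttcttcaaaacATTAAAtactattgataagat
LINC03061: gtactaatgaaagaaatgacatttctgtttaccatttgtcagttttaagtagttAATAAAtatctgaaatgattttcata
ENSG00000227706: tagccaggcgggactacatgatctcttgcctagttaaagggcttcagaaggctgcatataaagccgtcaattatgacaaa
ENSG00000228509: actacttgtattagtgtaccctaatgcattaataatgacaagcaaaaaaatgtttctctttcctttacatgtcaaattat
ENSG00000231405: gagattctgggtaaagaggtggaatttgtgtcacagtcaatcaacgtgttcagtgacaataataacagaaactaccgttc

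These stretches are chr18:73349799-73349878, chr13:109273759-109273838, chr6:67887646-67887725, chr2:190676944-190677023 and chr22:27159799-27159878 in that order. LINC02582 held ATTAAA, beginning 21 bases before the end, and LINC03061 held AATAAA, beginning 26 bases before it. The other 3 held neither hexamer in this window, although the shortest annotated transcript of ENSG00000228509 held ATTAAA. Among 29565 annotated lncRNA transcripts 29.7% held AATAAA, 9.76% ATTAAA and 37.9% either, so the windows without one are like most. A match is a description of letters and not a site, and where the RNAs end in these cells was not measured.

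LINC02582 was near or at 0 in isotonic wild-type cells and reached its highest level in WNK2- cells under sorbitol. No read was counted in any of the 4 WT Ctr libraries, and 0, 1, 0 and 2 reads were counted in WNK2 trans Ctr. WT Sor held 9, 3, 10 and 2 reads. These 3 groups overlapped in part, since the range of WNK2 trans Ctr reached into both others.

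WNK2 trans Sor held 100, 144, 113 and 120 reads of LINC02582, above every library of the groups named so far. WNK2- Ctr held 16, 15, 15 and 19 reads. WNK2- Sor held 1940, 1306, 1206 and 1291 reads, or 65.1 ± 5.37 CPM (SD, n = 4), against 6.73 ± 0.800 in WNK2 trans Sor and 0.784 ± 0.0723 in WNK2- Ctr. From WT Sor upwards no group overlapped the next, in the order WT Sor, WNK2- Ctr, WNK2 trans Sor and WNK2- Sor. The counts of WNK2- Sor and WNK2- Ctr gave 83.6-fold with a 95% interval of 65.5 to 108 that covers counting error only, as do all such intervals here. WNK2- Sor was 187-fold above WT Sor (interval 125 to 292).

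LINC03061 was also close to 0 in isotonic wild-type cells, but was already present in WNK2- cells without sorbitol. WT Ctr held 0, 1, 0 and 1 reads, WNK2 trans Ctr 0, 0, 0 and 1, and WT Sor 3, 8, 6 and 6. The isotonic wild-type groups overlapped each other, and WT Sor lay above both. WNK2 trans Sor held 29, 8, 17 and 12 reads, a range that overlapped WT Sor once scaled to library size.

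In WNK2- Ctr LINC03061 was counted 79, 71, 98 and 47 times, and in WNK2- Sor 1230, 857, 876 and 749 times. That is 3.58 ± 1.06 and 42.2 ± 4.28 CPM (SD, n = 4), and neither group overlapped any other. The ratio of WNK2- Sor to WNK2- Ctr was 11.9 (interval 10.6 to 13.5), and that of WNK2- Sor to WT Sor was 126 (interval 83.8 to 199). With 2 reads in all 4 WT Ctr libraries, the ratio of WNK2- Ctr to WT Ctr was 110 with an interval of 30.1 to 909, and with WNK2 trans Ctr and its 1 read in place of WT Ctr it was 247 (interval 44.1 to 9804).

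ENSG00000227706 divided the libraries by genotype. The 4 wild-type groups held at most 10 reads in any library: 0, 0, 3 and 0 in WT Ctr, 7, 2, 9 and 5 in WT Sor, 1, 1, 2 and 0 in WNK2 trans Ctr, and 6, 0, 1 and 10 in WNK2 trans Sor. Each of these groups overlapped the next in order of mean. WNK2- Ctr held 489, 515, 570 and 461 reads and WNK2- Sor 2585, 1625, 2035 and 1770, so every WNK2- library lay far above every wild-type one.

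The level of ENSG00000227706 was 24.6 ± 2.56 CPM in WNK2- Ctr and 91.8 ± 13.9 in WNK2- Sor (SD, n = 4), and these groups did not overlap. Sorbitol in WNK2- cells went with 3.73-fold more reads (interval 3.55 to 3.91), and WNK2- Sor stood 272-fold above WT Sor (interval 181 to 429). The ratio of WNK2- Ctr to WT Ctr, with 3 reads in the latter, was 504 with an interval of 172 to 2445, and all 3 of those reads were in WT Ctr replicate 3, so that the other WT Ctr libraries held none. With WNK2 trans Ctr in place of WT Ctr it was 427 (interval 166 to 1567).

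ENSG00000228509, the antisense gene, was higher under sorbitol in all 3 backgrounds. WT Ctr held 10, 9, 10 and 13 reads and WT Sor 153, 173, 248 and 191. WNK2 trans Ctr held 12, 14, 8 and 15 reads and WNK2 trans Sor 407, 499, 605 and 735. WNK2- Ctr held 72, 81, 93 and 55 reads and WNK2- Sor 1196, 732, 670 and 750.

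The isotonic wild-type groups of ENSG00000228509 overlapped at 0.691 ± 0.169 and 0.716 ± 0.199 CPM (SD, n = 4), and WNK2- Ctr lay above both at 3.65 ± 0.814. WT Sor was higher still at 11.2 ± 1.93. WNK2 trans Sor at 31.4 ± 5.15 and WNK2- Sor at 37.8 ± 4.90 overlapped, with a log2 difference of 0.27 (SE 0.15). The log2 fold change with sorbitol was 3.98 (SE 0.22) in WT and 3.37 (SE 0.17) in WNK2- cells. In WT it came to 3.93 (SE 0.22) with WNK2 trans Ctr as the isotonic group.

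ENSG00000231405 was present in every library and was the one RNA of the 5 that was lower under sorbitol in WT and in WNK2- cells. WT Ctr held 1633, 2039, 1879 and 1549 reads and WT Sor 567, 510, 555 and 574. WNK2- Ctr held 6758, 6207, 6724 and 6954 reads and WNK2- Sor 3570, 2570, 2716 and 2227. Neither isotonic group overlapped its sorbitol group.

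In the transfection labels the order of ENSG00000231405 was the opposite, with 733, 1429, 1071 and 745 reads in WNK2 trans Ctr and 1646, 2320, 2288 and 2445 in WNK2 trans Sor. Levels in CPM (SD, n = 4) went from 32.3 ± 1.33 in WT Sor over 56.4 ± 9.66 in WNK2 trans Ctr to 115 ± 10.9 in WT Ctr, 122 ± 10.3 in WNK2 trans Sor, 126 ± 13.9 in WNK2- Sor and 322 ± 18.1 in WNK2- Ctr. WT Ctr, WNK2 trans Sor and WNK2- Sor overlapped, and the other neighbours in this order did not. The groups labelled WT Ctr and WNK2 trans Ctr, whose WNK2 counts go against their labels, thus differed 2.02-fold for this RNA, a log2 fold change of -1.03 (SE 0.11) from WT Ctr to WNK2 trans Ctr.

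**Figure D1:**
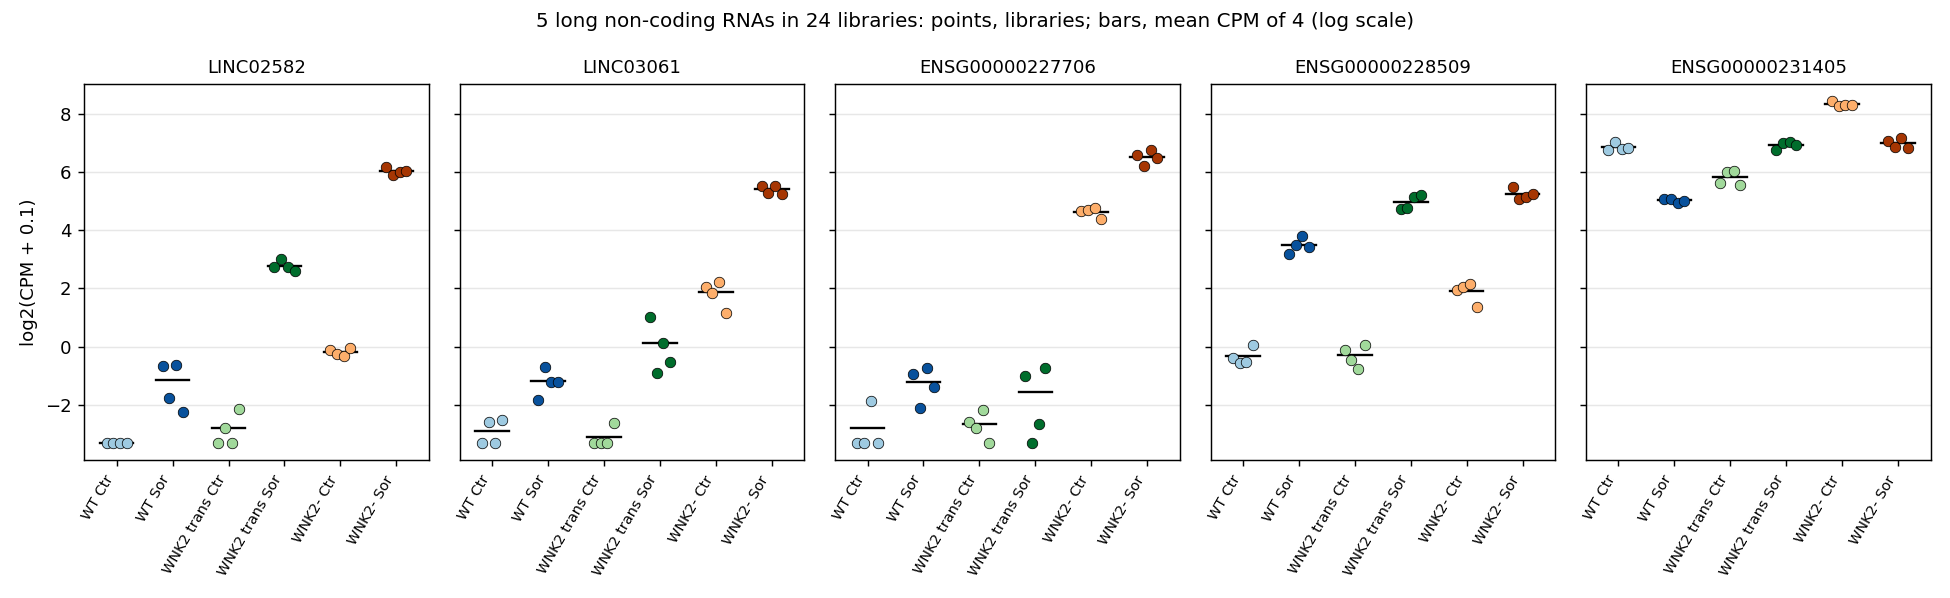
Level of each RNA as log2(CPM + 0.1) on the vertical axis for the 6 groups on the horizontal axis, with a point per library and a bar at the mean CPM of 4 libraries. LINC02582, LINC03061 and ENSG00000227706 sit near the floor in WT Ctr and WNK2 trans Ctr and highest in WNK2- Sor, ENSG00000228509 stands high in every sorbitol group, and ENSG00000231405 is highest in WNK2- Ctr at 322 CPM and lowest in WT Sor at 32.3 CPM.

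Set per kilobase of exon, which allows levels to be compared between genes, ENSG00000231405 was the most abundant of the 5. It reached 681 ± 38.3 CPM per kilobase in WNK2- Ctr and 267 ± 29.3 in WNK2- Sor (SD, n = 4). In WNK2- Sor the level per kilobase was 57.2 ± 8.66 for ENSG00000227706, 33.6 ± 4.36 for ENSG00000228509, 28.6 ± 2.36 for LINC02582 and 8.30 ± 0.842 for LINC03061. The exon lengths behind these values, 473, 1605, 1125, 2275 and 5087 bases, count all exons of GENCODE 29, and which of them are used in these cells was not measured. The reads were counted on an annotation whose release is not given, so the lengths they were counted over may differ from these. In bulk libraries such as these, fewer cells carrying an RNA and less of it per cell cannot be told apart.

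The change with sorbitol in the libraries labelled WNK2 trans uses other libraries than the sorbitol contrasts in WT and WNK2- cells. It is itself a sorbitol change, and the RNAs were picked for such changes without a background being named, so it too is given as a description with no test. 4 of the 5 were higher in WNK2 trans Sor than in WNK2 trans Ctr with no overlap, as was so for 17.7% of all genes. In that comparison the fit called 48% of 16600 genes (24.3% higher) and 41.7% of 2394 lncRNA genes (33.5% higher).

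LINC02582 had a log2 fold change of 6.59 (SE 0.34). The isotonic group held 3 reads in all, and the ratio of the counts was 156 with an interval of 53.0 to 758. Without WNK2 trans Ctr replicate 4, which held 2 of those reads, the fitted change was 7.20. ENSG00000228509 had a log2 fold change of 5.42 (SE 0.22), a count ratio of 44.9 with an interval of 33.8 to 60.9.

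LINC03061 had a log2 fold change of 4.55 (SE 0.65), and with a single read in the isotonic group the count ratio of 64.7 had an interval of 11.2 to 2592. Its fitted change was 5.17 without WNK2 trans Ctr replicate 4, which held that read. These 3 RNAs were also higher than in the libraries labelled WT Ctr, where LINC02582 was 138-fold above a floor of 3 reads over the group. Against WT Ctr LINC03061 had a count ratio of 28.6 (interval 7.62 to 241) and ENSG00000228509 one of 46.4 (interval 34.2 to 64.6).

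ENSG00000231405 had a log2 fold change of 1.11 (SE 0.11), a ratio of 2.14. With WT Ctr as the isotonic group it was 0.083 (SE 0.10) and the groups overlapped. The difference thus rests on which isotonic group is used, and the WNK2 counts go against the labels of both.

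ENSG00000227706 had 17 reads in WNK2 trans Sor and 4 in WNK2 trans Ctr, a log2 fold change of 1.65 (SE 0.74), and the groups overlapped. It was 0.96 without WNK2 trans Sor replicate 4, which held 10 of the 17 reads. With WT Ctr as the isotonic group the count ratio was 4.92 (interval 1.42 to 26.2), again with overlap. A difference for this RNA was not resolved at this depth.

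**Figure D2:**
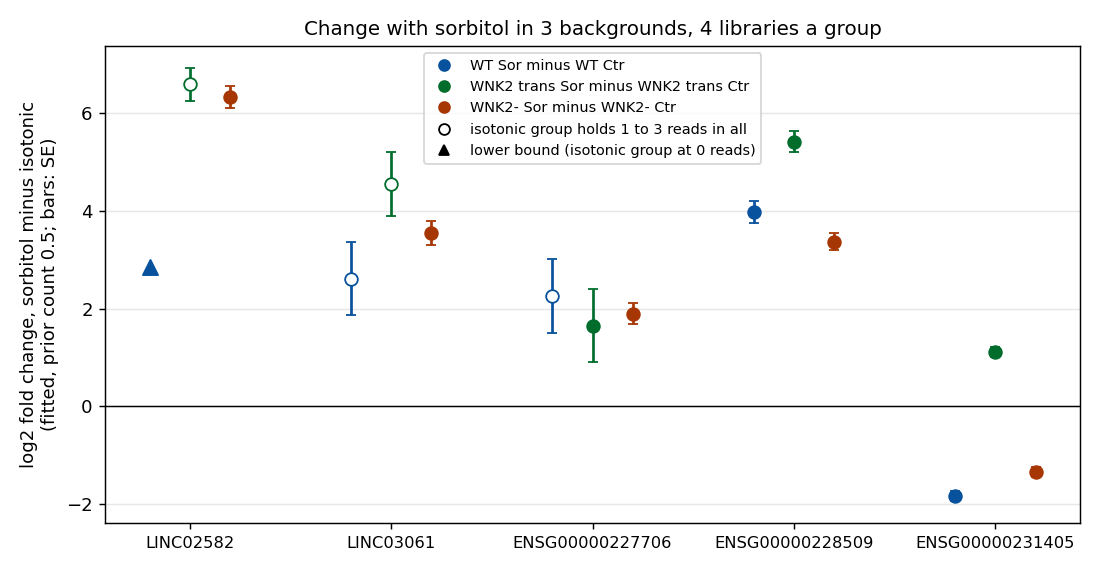
Fitted log2 fold change of each RNA from isotonic medium to sorbitol (vertical axis, bars are SE) in WT, WNK2 trans and WNK2- libraries, 4 a group. Open points had 1 to 3 reads in the whole isotonic group. The triangle, marked there as a lower bound, sets LINC02582 in WT Sor against a floor of 3 reads and leaves out counting error in WT Sor. ENSG00000231405 lies at -1.83 in WT and -1.35 in WNK2- cells but at 1.11 in the transfection labels, a point that moves to 0.083 with WT Ctr as the isotonic group, while the WT point moves to -0.80 with WNK2 trans Ctr.

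The changes in the contrasts that picked the RNAs, set side by side, were as follows. From WT Ctr to WT Sor the groups of 4 RNAs did not overlap, as was so for 25.7% of all genes tested, and those of ENSG00000227706 did. All WT Ctr reads of ENSG00000227706 were in replicate 3, and its log2 fold change of 2.26 ran from 1.98 to 3.75 without single libraries. LINC02582 was 7.21-fold above the floor of 3 reads over the group. LINC03061 had a count ratio of 10.4 (interval 2.56 to 90.6) and ENSG00000228509 one of 16.4 (interval 12.0 to 23.0). ENSG00000231405 was 3.57-fold lower, a log2 fold change of -1.83 (SE 0.11), the lowest of the 1434 lncRNA genes ranked (those whose mean log2 CPM was 0 or more) and ahead of ENSG00000205959 at -1.49. Among rises ENSG00000228509, LINC02582, LINC03061 and ENSG00000227706 ranked 3, 4, 11 and 18, with ENSG00000265994 at 4.41 and IGFL2-AS1 at 4.04 ahead of them. These ranks use WT Ctr, and none were taken with the other isotonic group. With WNK2 trans Ctr as the isotonic group the change of ENSG00000231405 was -0.80 (SE 0.11), still without overlap, while LINC02582 then had a count ratio of 8.14 (interval 2.47 to 42.2) with overlapping groups. In the same exchange the ratio of LINC03061 was 23.4 (interval 3.80 to 964), and that of ENSG00000227706 was 5.85 (interval 2.00 to 23.3) with no overlap, beside 6.91 (interval 2.09 to 35.9) against WT Ctr.

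Without sorbitol, all 5 RNAs were higher in WNK2- Ctr than in WT Ctr with no overlap, as was so for 19.1% of all genes. LINC02582 was 16.1-fold above the floor of 3 reads over WT Ctr, ENSG00000228509 had a log2 fold change of 2.37 (SE 0.24) and ENSG00000231405 one of 1.48 (SE 0.11). With WNK2 trans Ctr in place of WT Ctr the last was 2.51 (SE 0.11) and ENSG00000228509 2.32 (SE 0.23), and LINC02582 had a count ratio of 18.2 (interval 5.95 to 90.4).

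Under sorbitol all 5 were again higher in WNK2- than in WT cells with no overlap, beside 27.7% of all genes. ENSG00000227706, LINC02582 and LINC03061 had the 3 largest log2 fold changes of the 1434 lncRNA genes ranked, at 7.98 (SE 0.32), 7.43 (SE 0.25) and 6.86 (SE 0.33), with CCR5AS next outside them at 6.43. ENSG00000231405 and ENSG00000228509 were ranked 66 and 80, at 1.97 (SE 0.11) and 1.76 (SE 0.16).

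Within WNK2- cells sorbitol separated the groups of all 5, where 28.4% of all genes did not overlap, with 4 higher and ENSG00000231405 2.54-fold lower. From WT Sor to WNK2 trans Sor 3 RNAs were higher without overlap, beside 15% of all genes. LINC02582 was 19.1-fold higher (interval 12.7 to 30.2), ENSG00000231405 3.80-fold (interval 3.62 to 3.98) and ENSG00000228509 2.83-fold (interval 2.60 to 3.07). From WT Ctr to WNK2 trans Ctr ENSG00000231405 was the one RNA of the 5 without overlap, and lower, beside 5.96% of all genes.

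lncRNA genes as a class had higher median changes than all genes in several of these contrasts. From WNK2 trans Ctr to WNK2 trans Sor the median log2 fold change was 0.42 over 2394 lncRNA genes and 0.01 over all genes tested. From WT Ctr to WT Sor it was 0.29 beside 0.03, and from WT Sor to WNK2- Sor 0.18 beside 0.02.

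The antisense gene and NAB1 share exon bases, the library kit does not mark strand, and the strand setting of the counting is not given in the sources used here. Reads in the 186 shared bases thus cannot be assigned to either gene. NAB1, a corepressor of EGR transcription factors, had 20.0 ± 4.70 CPM in WT Ctr and 22.5 ± 2.54 in WT Sor (SD, n = 4), with a log2 fold change of 0.17 (SE 0.20, edgeR adjusted p = 0.598). It was at 11.6 ± 2.45 in WNK2- Ctr and 11.2 ± 1.37 in WNK2- Sor, lower than in WT by -0.79 (SE 0.21, edgeR adjusted p = 0.00330) without and by -1.01 (SE 0.21, edgeR adjusted p = 0.000262) with sorbitol.

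From WNK2 trans Ctr to WNK2 trans Sor NAB1 fell by 0.53 on the log2 scale (SE 0.20, edgeR adjusted p = 0.0340), with overlapping groups, while ENSG00000228509 was higher. For every 100 reads of NAB1, ENSG00000228509 had between 2.44 and 4.13 in WT Ctr, between 2.86 and 3.77 in WNK2 trans Ctr and between 43.7 and 58.9 in WT Sor. The ratio was 147 to 265 for WNK2 trans Sor, 17.6 to 44.7 for WNK2- Ctr and 296 to 400 for WNK2- Sor. The antisense gene was thus a small share of the pair in isotonic wild-type cells and outnumbered NAB1 in every library of WNK2 trans Sor and WNK2- Sor.

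**Figure D3:**
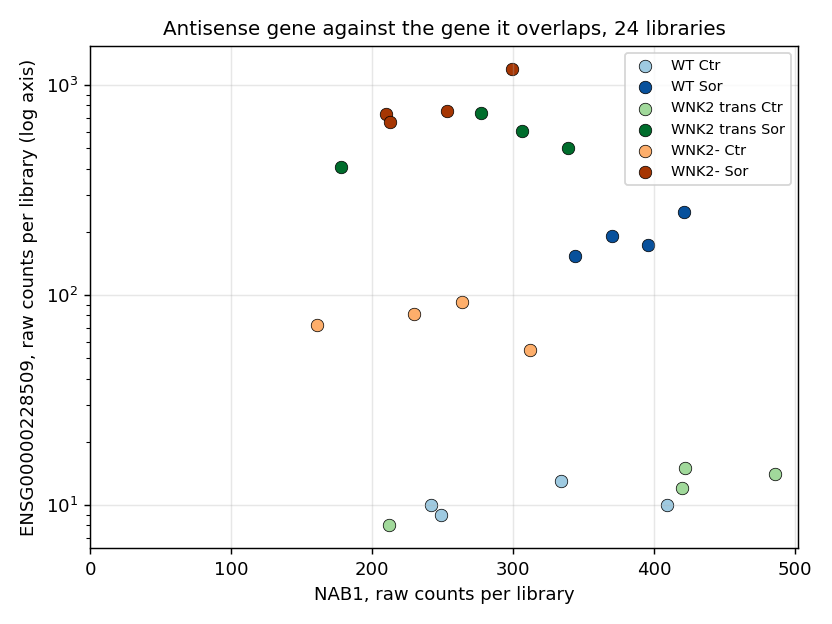
Reads of ENSG00000228509 (vertical log axis) against reads of NAB1 (horizontal axis), a point per library, coloured by group. Isotonic wild-type libraries lie at 8 to 15 reads of the antisense gene and the WNK2- Sor libraries at 670 to 1196, while NAB1 covers a much narrower range.

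Neighbours on the chromosome were chosen by position alone, the 5 nearest genes on each side that passed the filter plus NAB1, 51 genes in all. From WT Sor to WNK2- Sor 28 of the 51 were called (14 higher, 14 lower), where 46.3% of all genes were. From WNK2 trans Ctr to WNK2 trans Sor it was also 28 (17 higher, 11 lower), beside 48% of all genes, and from WT Ctr to WNK2- Ctr 25 (13 higher, 12 lower), beside 42.1%. From WT Ctr to WT Sor 13 were called (8 higher, 5 lower), beside 24.1%, which fell to 8 without WT Sor replicate 3. From WNK2- Ctr to WNK2- Sor 11 were called beside 14.9% of all genes, from WT Ctr to WNK2 trans Ctr 7 beside 12.5%, and from WT Sor to WNK2 trans Sor 20 beside 31.7%. The called shares of the 51 were 54.9%, 54.9%, 49%, 25.5%, 21.6%, 13.7% and 39.2% in that order, near or somewhat above the background, and the neighbours of 1 gene are not independent of each other.

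Near LINC02582, whose nearest neighbour among the genes chosen is 564.5 kb away, that neighbour, the lncRNA ENSG00000263655, moved in the same direction. It was at 0.0588 ± 0.00456 CPM in WT Sor and 1.47 ± 0.746 in WNK2- Sor (SD, n = 4), a log2 fold change of 4.13 (SE 0.62, edgeR adjusted p = 8.62e-06). From WNK2 trans Ctr to WNK2 trans Sor it rose from 0.0339 ± 0.0677 to 0.726 ± 0.158 CPM (edgeR adjusted p = 0.000111). Its levels in WT Sor and WNK2 trans Ctr lie at the floor of counting, where the SD is no measure of precision. From WNK2 trans Ctr to WNK2 trans Sor CD226, a receptor of T and natural killer cells 3363.1 kb away, rose by 2.56 (SE 0.35, edgeR adjusted p = 1.79e-06). There CCDC102B, a centrosome protein 4269.8 kb away, fell by 1.76 (SE 0.20, edgeR adjusted p = 6.07e-08) to 5.37 ± 1.65 CPM, beside 5.98 ± 1.18 in WT Ctr. CCDC102B instead rose by 1.05 (SE 0.20, edgeR adjusted p = 0.000397) from WT Ctr to WT Sor, to 12.4 ± 0.675 CPM, beside 18.4 ± 3.61 in WNK2 trans Ctr. FBXO15, an F-box protein, was higher in WNK2- Ctr than in WT Ctr by 1.42 (SE 0.55, edgeR adjusted p = 0.0408).

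The nearest gene chosen for LINC03061 is MYO16, an unconventional myosin 61.6 kb away. MYO16 was at 0.415 ± 0.140 CPM in WT Sor and 1.28 ± 0.516 in WNK2- Sor (SD, n = 4). It was higher there by 1.58 (SE 0.55, edgeR adjusted p = 0.0201), as was the lncRNA ENSG00000285534, 200.2 kb away on the other side, by 1.44 (SE 0.43, edgeR adjusted p = 0.00777). LINC03082 rose from 0.0223 ± 0.0446 CPM in WNK2 trans Ctr, at the floor of counting, to 0.610 ± 0.199 in WNK2 trans Sor (edgeR adjusted p = 0.000177). COL4A1, which encodes a chain of basement membrane collagen and lies 870.5 kb away, moved the other way from WNK2 trans Ctr to WNK2 trans Sor, from 1390 ± 152 to 411 ± 17.0 CPM (SD, n = 4), where it fell by 1.76 on the log2 scale (SE 0.09, edgeR adjusted p = 3.03e-14), and it was at 784 ± 86.3 in WT Ctr. 8 of the 10 neighbours of LINC03061 were called in this comparison, 5 of them higher, beside 6 of 10 for LINC02582, 3 of 10 for ENSG00000227706, 6 of 11 for ENSG00000228509, 5 of 10 for ENSG00000231405 and 48% of all genes.

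ENSG00000227706 lies far from the genes chosen. The nearest of them are ADGRB3, an adhesion receptor, 746 kb away on one side and the pseudogene ADH5P4 2049.6 kb away on the other. ADGRB3 was at 0.132 ± 0.141 CPM in WT Ctr and 1.29 ± 0.344 in WNK2- Ctr (SD, n = 4), a log2 fold change of 3.06 (SE 0.57, edgeR adjusted p = 0.000129), and was higher in WNK2- Sor than in WT Sor by 2.02 (SE 0.53, edgeR adjusted p = 0.00284). LMBRD1, a lysosomal membrane protein needed for cobalamin export, was lower in WNK2- Ctr than in WT Ctr by -1.45 (SE 0.12, edgeR adjusted p = 5.90e-10). EYS rose by 2.24 (SE 0.21, edgeR adjusted p = 2.26e-09) from WNK2 trans Ctr to WNK2 trans Sor, where the groups of ENSG00000227706 itself overlapped. The annotated body of EYS overlaps that of PHF3 on the opposite strand, so reads there are uncertain. FKBP1C was higher in WNK2- Sor than in WT Sor by 1.81 (SE 0.17, edgeR adjusted p = 1.62e-09), but it is a near copy of FKBP1A, so its reads are uncertain.

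Around ENSG00000228509, NABP1, a single-stranded DNA binding protein 969.4 kb away, rose from 12.7 ± 1.33 to 48.9 ± 5.39 CPM (SD, n = 4) between WNK2 trans Ctr and WNK2 trans Sor, by 1.95 on the log2 scale (SE 0.13, edgeR adjusted p = 4.73e-12). NEMP2-DT, the divergent transcript of NEMP2, rose by 1.48 (SE 0.32, edgeR adjusted p = 0.00169) from WT Ctr to WT Sor. ENSG00000284052, whose annotated body overlaps the start of NAB1 on the opposite strand so that reads there are also uncertain, was lower in WNK2- Ctr than in WT Ctr by -1.27 (SE 0.38, edgeR adjusted p = 0.00932), at 0.871 ± 0.416 CPM beside 1.495 ± 0.288 in WNK2 trans Ctr.

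Near ENSG00000231405 the closest of the genes chosen is the lncRNA LINC01638, 61.5 kb away. It was at 0.472 ± 0.289 CPM in WT Sor and 2.03 ± 0.468 in WNK2- Sor (SD, n = 4), higher by 2.05 (SE 0.49, edgeR adjusted p = 0.00124), beside 1.97 for ENSG00000231405. From WNK2 trans Ctr to WNK2 trans Sor it fell by 1.62 (SE 0.55, edgeR adjusted p = 0.0174), with overlapping groups, while ENSG00000231405 was higher. MIAT, an lncRNA 467 kb away on the other side whose annotated body overlaps that of MIATNB, so that reads there are uncertain, was lower in WNK2- Sor than in WT Sor by -3.44 (SE 0.58, edgeR adjusted p = 2.81e-05). MN1, a transcriptional coregulator, fell by 0.85 (SE 0.17, edgeR adjusted p = 0.000182) in the transfection labels, to 7.67 ± 1.13 CPM beside 11.5 ± 3.29 in WT Ctr, and LINC01422 was lower in WNK2- Ctr than in WT Ctr by -1.35 (SE 0.54, edgeR adjusted p = 0.0475), at 0.431 ± 0.126 CPM beside 0.598 ± 0.281 in WNK2 trans Ctr.

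**Figure D4:**
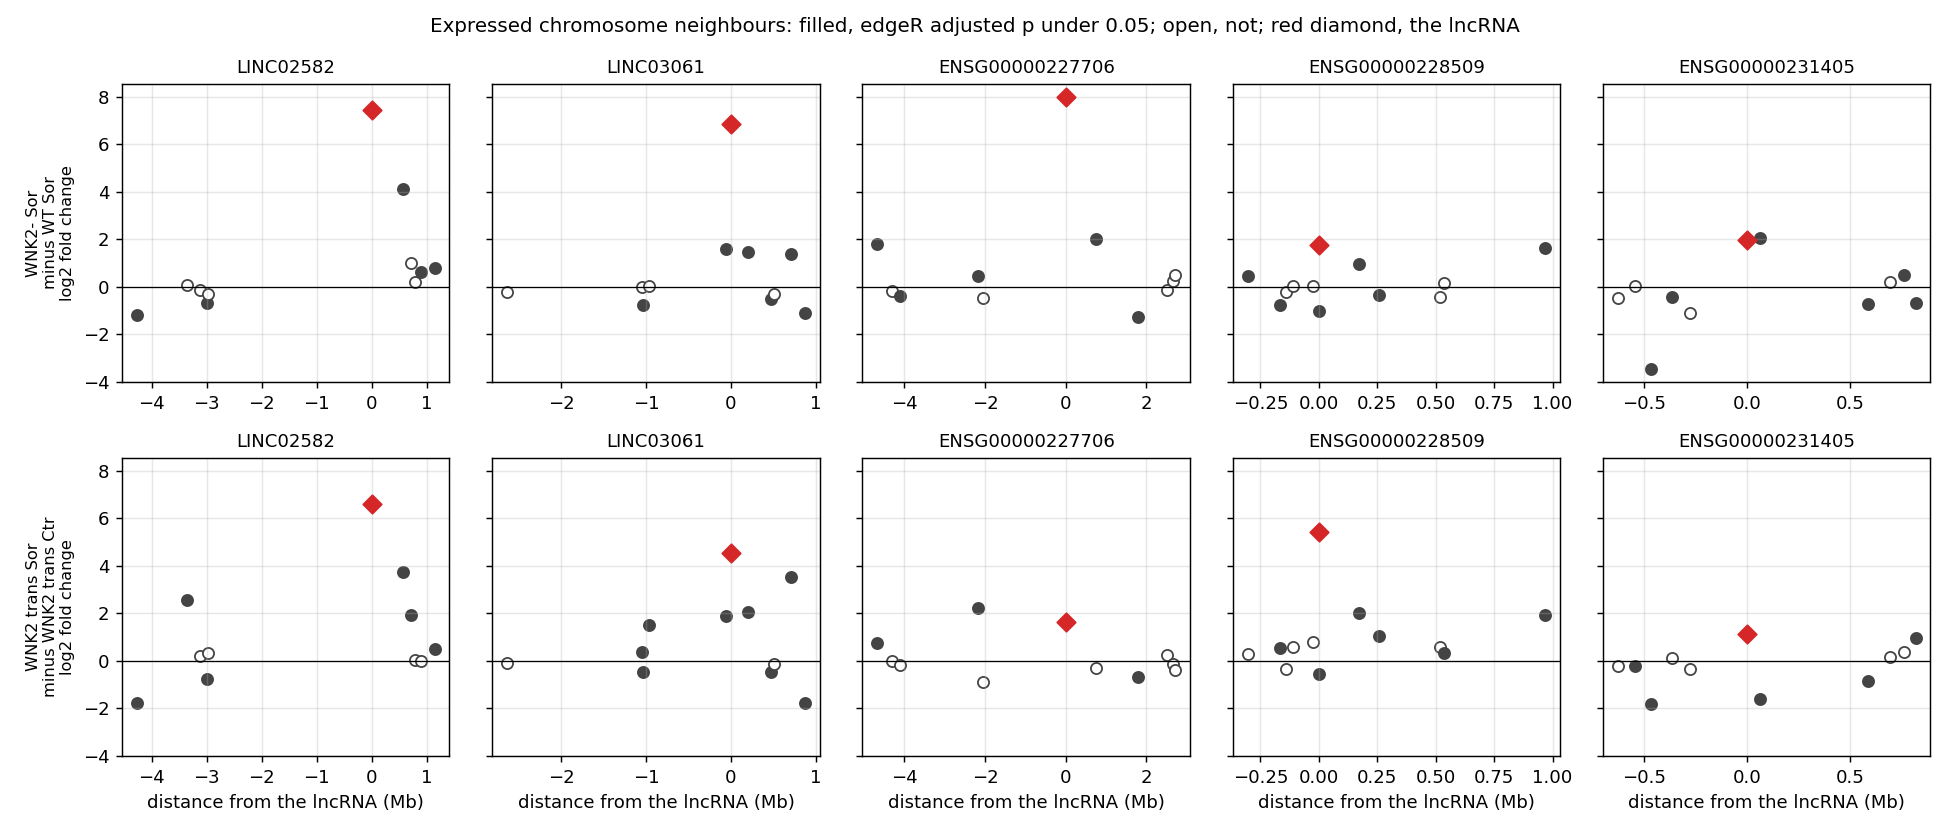
Log2 fold change (vertical axis) of the expressed neighbours chosen for each RNA against their distance in Mb (horizontal axis). The upper row is from WT Sor to WNK2- Sor and the lower row from WNK2 trans Ctr to WNK2 trans Sor. Filled points passed an edgeR adjusted p of 0.05, open points did not, and the red diamond is the RNA itself, which in the upper row lies above all its neighbours except LINC01638 at 2.05 beside ENSG00000231405 at 1.97.

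As a setting for these 5, a list of 45 widely studied lncRNAs was read in the same fit, of which 29 passed the filter. From WT Ctr to WT Sor 7 of the 29 were called (6 higher, 1 lower), from WT Ctr to WNK2- Ctr 20 (14 higher, 6 lower), from WT Sor to WNK2- Sor 20 (11 higher, 9 lower) and from WNK2 trans Ctr to WNK2 trans Sor 23 (14 higher, 9 lower). Called shares were 24.1%, 69%, 69% and 79.3% of those tested, beside 24.1%, 42.1%, 46.3% and 48% of all genes, and the median log2 fold changes 0.26, 0.39, 0.29 and 0.26. From WNK2- Ctr to WNK2- Sor 9 were called (31%, beside 14.9% of all genes), from WT Ctr to WNK2 trans Ctr 7 (24.1%, beside 12.5%) and from WT Sor to WNK2 trans Sor 14 (48.3%, beside 31.7%). The shares were not compared by a test.

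LINC-PINT, which is induced by p53, rose from 21.0 ± 3.22 to 68.7 ± 8.62 CPM (SD, n = 4) between WT Ctr and WT Sor, by 1.71 (SE 0.19, edgeR adjusted p = 5.79e-07). It rose by 2.17 (SE 0.19, edgeR adjusted p = 9.24e-10) in the transfection labels. H19, an imprinted lncRNA, rose by 1.65 (SE 0.25, edgeR adjusted p = 4.67e-05) from WT Ctr to WT Sor, and NKILA, which binds NF-kB, fell by 0.89 (SE 0.25, edgeR adjusted p = 0.0112) to 3.30 ± 0.117 CPM, beside 4.99 ± 1.47 in WNK2 trans Ctr. HOTAIR, from the HOXC cluster, fell by 1.52 (SE 0.16, edgeR adjusted p = 3.02e-08) in the transfection labels but rose by 0.72 (SE 0.15, edgeR adjusted p = 0.00140) from WT Ctr to WT Sor, to 8.78 ± 0.607 CPM beside 7.87 ± 1.66 in WNK2 trans Ctr, so that the rise rests on the group labelled WT Ctr. From WNK2 trans Ctr to WNK2 trans Sor MIAT fell by 1.80 (SE 0.51, edgeR adjusted p = 0.00554) to 0.405 ± 0.224 CPM, beside 0.662 ± 0.296 in WT Ctr.

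UCA1, like LINC02582, was highest in WNK2- Sor. It was listed at 0 in all libraries labelled WT Ctr and WNK2 trans Ctr, at 0.0742 ± 0.0870 CPM in WT Sor, 0.202 ± 0.192 in WNK2 trans Sor, 0.153 ± 0.0918 in WNK2- Ctr and 3.91 ± 0.459 in WNK2- Sor (SD, n = 4). It was higher in WNK2- Sor than in WT Sor by 5.29 (SE 0.62, edgeR adjusted p = 8.73e-07). LOXL1-AS1, antisense to a lysyl oxidase gene, was higher in WNK2- cells by 1.52 (SE 0.12, edgeR adjusted p = 1.19e-10) without and by 2.28 (SE 0.12, edgeR adjusted p = 3.02e-14) with sorbitol. PACERR, antisense at the PTGS2 locus, was lower there by -2.14 (SE 0.49, edgeR adjusted p = 0.000961) and -2.44 (SE 0.46, edgeR adjusted p = 0.000108), and MIAT was lower by -2.34 (SE 0.62, edgeR adjusted p = 0.00343) without sorbitol. In WNK2 trans Ctr PACERR was at 0.515 ± 0.458 CPM, beside 0.292 ± 0.0553 in WNK2- Ctr. For the antisense genes, reads of either strand cannot be told apart.

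The genes whose log2 CPM (prior count 2) ran most like that of each RNA over the 24 libraries were found by Pearson correlation. The libraries share 6 groups and the depth difference between them, so the values describe likeness of pattern only. For LINC02582 they were ENSG00000289850 (r = 0.989), the matrix metalloproteinase MMP3 (0.976) and CCR5AS (0.976). MMP3 stood at 84.4 CPM in WNK2- Sor and 24.4 in WNK2 trans Sor, against 0.273 in WT Ctr.

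For LINC03061 they were the laminin chain LAMB3 (0.972), the hexokinase-like HKDC1 (0.971) and the chemokine receptor-like CCRL2 (0.969). For ENSG00000227706 they were SPOCD1 (0.973), the small heat shock protein HSPB8 (0.968) and TRIML2 (0.966). For ENSG00000228509 they were the adaptors SH3KBP1 (0.980) and BCAR3 (0.979) and ITPRIP (0.979). For ENSG00000231405 they were FANCA of the Fanconi anaemia pathway (0.951), the deubiquitinase USP7 (0.940) and the polo-like kinase PLK2 (0.939). Among the 5 themselves r was 0.92 for LINC03061 with ENSG00000227706, 0.88 for LINC02582 with LINC03061, 0.88 for LINC02582 with ENSG00000228509 and 0.049 for ENSG00000228509 with ENSG00000231405.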

How the data were processed

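24 RNA-seq libraries of the T/C-28a2 line were read, 4 replicates in each of 6 groups named by the deposited labels. The study calls its replicates biological, and p-values measure the spread between them. The authors deposited raw counts of reads per Ensembl gene, not normalized, from poly(A)-enriched libraries. Per the submitters' processing notes FastQC 0.11.9, HISAT2 2.2.1, HTSeq 2.0.2, DESeq2 1.38.3 and GRCh38 were used, while the study's methods name other versions of HTSeq and DESeq2. The annotation release and strand setting are not given in the sources used here. Reads that HTSeq finds in 2 genes are dropped by default, which can lower overlapping genes.

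Of 62703 identifiers 58279 were in GENCODE 29, used for types, positions and sequences. Genes were kept by filterByExpr (minimum count 10, minimum total 15), which left 16600 and all 5 RNAs. R 4.3.3 with edgeR 4.0.16 (TMM factors, quasi-likelihood test, 6 group means in one fit, prior count 0.5, Benjamini-Hochberg over all genes, threshold 0.05) gave log2 fold changes. DESeq2 1.42.0 served as an alternative. CPM uses effective library sizes. Count ratios pool the 4 libraries of a group and carry exact 95% intervals for counting error. Where a group held no read, 3 reads were put in its place as a floor, and the count of the other group was taken as exact. A test planned for the RNAs themselves, from WNK2 trans Ctr to WNK2 trans Sor, is given as a description, since they were picked for changes with sorbitol.

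The RNAs, lists and alternatives were chosen with earlier results of these data known. Named were the 5 RNAs, NAB1, for each RNA up to 4 neighbours called without overlap that changed most, the 3 most similar genes, and the 2 largest rises and falls called on the lncRNA list in 4 comparisons. MMP3 levels, further comparisons of ADGRB3, ENSG00000263655, CCDC102B and LINC01638, levels in the other isotonic group, HOTAIR in WT and ADH5P4 were added after their values were seen. 1 neighbour that the rule names is not reported here. The sequence windows were also chosen after the data were seen, since no RefSeq promoter window matched any of the 5 RNAs.

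No replicate pair of a group agreed within counting noise. Alternatives were DESeq2, RLE and upper-quartile factors, other low-count filters, other prior counts, only the groups compared, a replicate block, each library left out and, added after the data were seen, the exchange of the isotonic wild-type groups.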

Additional observations from a re-analysis of the deposited data

Results flagged for a closer look

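ENSG00000231405 moved in opposite directions with sorbitol in different backgrounds, with log2 fold changes of -1.83 from WT Ctr to WT Sor, -1.35 from WNK2- Ctr to WNK2- Sor and 1.11 from WNK2 trans Ctr to WNK2 trans Sor, and every library of a sorbitol group lay on one side of its isotonic group. The difference between these changes was not tested. The WNK2 counts go against the labels of both isotonic wild-type groups, and with those groups exchanged the values in WT and in the transfection labels were -0.80 and 0.083.

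In 2 of 30 sets of 4 libraries, 1 library stood apart from the other 3, which were at 0, so that its gap to them made up the whole range (a ratio of 1). Among the 30, LINC02582 in WT Ctr had no read in any library and could not be tested. For LINC03061 in WNK2 trans Ctr that library had 0.0626 CPM, which is 1 read. For ENSG00000227706 in WT Ctr it had 0.177 CPM, which is 3 reads. For continuous values chance sets apart a library in about 1 of 20 such sets, a rate that does not hold for counts this low, where a single read in 4 libraries always does so.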

How the results depend on the processing

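The log2 fold changes of the 5 RNAs from WNK2 trans Ctr to WNK2 trans Sor are a description, since the RNAs were picked for changes with sorbitol, and passing a threshold is no support for them. Those of LINC02582, LINC03061 and ENSG00000228509 stayed above 0 in every alternative that could be fitted. That of ENSG00000231405 was 0.083 with the other isotonic group. That of ENSG00000227706 was 2.07 with DESeq2 and ran from 0.96 to 2.05 without single libraries. Of the 5, the fit put 4 past the threshold, 5 with DESeq2, 3 with the other isotonic group and 4 to 5 without single libraries. It was 3 with only the 2 groups compared, where LINC03061 and ENSG00000227706 were not in the fit. It was 1 with at least 10 counts in every library, where a single one of the 5 remained.

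Fitting only the 2 groups compared moved the genes called to 4824 from WNK2- Ctr to WNK2- Sor and 747 from WT Ctr to WNK2 trans Ctr (main 2473 and 2082), neighbours to 8 from WT Ctr to WT Sor, 23 from WNK2- Ctr to WNK2- Sor and 2 from WT Ctr to WNK2 trans Ctr, and the lncRNA list to 15 and 1 in the last comparisons named. The other isotonic group gave 2499 genes from it to WT Sor (main 4008), at least 10 counts in every library 15 neighbours from WT Ctr to WNK2- Ctr, and no filter 4 of the list from WT Ctr to WNK2 trans Ctr. The cause was not tested.

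Without single libraries, neighbours called ran from 8 to 16 (WT Ctr to WT Sor) and from 3 to 7 (WT Ctr to WNK2 trans Ctr, 4 without WT Ctr replicate 2 or 3 and 3 without WNK2 trans Ctr replicate 4), and the list in the latter from 3 to 8 (3 without WT Ctr replicate 2 or WNK2 trans Ctr replicate 4, 4 without WNK2 trans Ctr replicate 1). From WT Ctr to WNK2 trans Ctr the described changes, with overlapping groups, turned direction without single libraries: ENSG00000227706 (main 0.16) ran from -0.23 to 1.65 and ENSG00000228509 (main 0.047) from -0.091 to 0.22. By Spearman correlation 1, 0, 1, 0 and 1 of the 3 most similar genes stayed for LINC02582, LINC03061, ENSG00000227706, ENSG00000228509 and ENSG00000231405, and 1 for LINC03061 with a prior count of 0.5.

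With the replicate number as a block, the 5 RNAs had log2 fold changes of 6.58, 4.52, 1.64, 5.41 and 1.12, 4 were called, and 7890 genes were called in that comparison, so no call on them changed. Replicate numbers were not taken to pair the samples, since not every same-numbered pair of libraries correlated (r of -0.29 to 0.46 over 60 pairs, median 0.013, against a median of 0.0011 over 180 pairs with different numbers). 11 of 24 libraries correlated best with their own number. Depth limits ENSG00000227706 and the isotonic wild-type groups of LINC02582 and LINC03061, where fitted changes follow the prior count.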
